A study of Mus musculus with 4 samples.

Results

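Primordial germ cells are the embryonic founders of eggs and sperm, and 10 genes known for their specification, survival and surface were followed across 4 chimeric mouse embryos. The genes were taken as a named set (Prdm1, Prdm14, Tfap2c, Dppa3, Nanos3, Dnd1, Ifitm1, Ifitm3, Kit and Alpl), and all 10 symbols were found among the 39179 Ensembl genes of the deposited counts. The embryos were collected at E8.5 and, for their delay, staged by the submitters at E7.75. They were made with ESCs, kept in 2i medium before injection, and 8-cell hosts of an ARC x RLZRFP cross. In 2 embryos the ESCs carried doxycycline-inducible FLAG-Lhx1, and in the other 2 they carried FLAG-Lhx1-mt (in the labels also FLAG-Lhx1-Δ). All 4 shared the same treatment of the mother, 2 mg/mL doxycycline with 5% sucrose for 24 hours, and no uninduced embryo was analysed here. Each library is 1 whole embryo in which host cells remain beside the descendants of the ESCs, and neither the share of ESC descendants nor the origin of the germ cells is given in the sources used here. In such bulk RNA, fewer germ cells and less RNA per germ cell cannot be told apart.

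Germ cells of the mouse are set aside in the proximal posterior epiblast. There BMP ligands, chiefly BMP4 with BMP8b, act on epiblast cells that WNT3 has made able to respond. The transcription factors PRDM1 (also called BLIMP1), PRDM14 and TFAP2C then shut down the somatic programme, bring back pluripotency genes and start the resetting of DNA methylation, while NANOS3 and DND1 protect the new cells through RNA binding. Most of the 10 genes are not restricted to germ cells: Prdm1 is also active in visceral endoderm, Tfap2c in trophoblast and surface ectoderm, Ifitm1 in posterior mesoderm, Kit in blood progenitors, and Prdm14 in naive ESCs.

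Promoter sequences bear on these genes because several germ cell genes are controlled by methylation of CG dinucleotides. RefSeq's promoter table for GRCm38.p6 held 6 of the 10 genes, and the 250 bases before the annotated start were used. The promoters of the paralogs Ifitm1 and Ifitm3, of the germ cell gene Nanos3 and of Prdm1 are shown 5′ to 3′ on the strand of the gene, with every CG in capitals. They lie at chr7:140967826-140968075 (plus strand), chr7:141010745-141010994 (minus strand), chr8:84176553-84176802 (minus strand) and chr10:44458749-44458998 (minus strand). In these 4 genes the RefSeq start lies inside the GENCODE gene span given with the values, not at its outer end.
Ifitm1: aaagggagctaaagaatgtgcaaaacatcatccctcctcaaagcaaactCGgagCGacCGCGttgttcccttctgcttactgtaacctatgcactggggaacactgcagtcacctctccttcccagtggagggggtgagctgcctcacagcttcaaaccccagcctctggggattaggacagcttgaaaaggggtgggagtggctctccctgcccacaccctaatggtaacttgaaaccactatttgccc
Ifitm3: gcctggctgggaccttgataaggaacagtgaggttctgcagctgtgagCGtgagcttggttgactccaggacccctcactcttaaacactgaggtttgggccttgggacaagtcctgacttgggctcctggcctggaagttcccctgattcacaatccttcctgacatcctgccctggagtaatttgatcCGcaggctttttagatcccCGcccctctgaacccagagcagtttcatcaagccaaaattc
Nanos3: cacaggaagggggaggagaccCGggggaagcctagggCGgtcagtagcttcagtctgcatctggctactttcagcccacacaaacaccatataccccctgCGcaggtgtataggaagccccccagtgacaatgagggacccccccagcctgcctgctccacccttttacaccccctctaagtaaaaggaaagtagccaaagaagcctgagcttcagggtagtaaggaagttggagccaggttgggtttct
Prdm1: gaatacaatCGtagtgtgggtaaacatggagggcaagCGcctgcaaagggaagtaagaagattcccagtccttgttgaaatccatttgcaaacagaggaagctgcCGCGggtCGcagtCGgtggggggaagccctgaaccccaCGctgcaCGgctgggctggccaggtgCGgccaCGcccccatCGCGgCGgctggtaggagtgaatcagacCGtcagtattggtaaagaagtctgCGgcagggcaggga
The Prdm1 window held 15 CG, against 4 in Ifitm1, 3 in Ifitm3 and 3 in Nanos3. The observed over expected CG ratio was 0.71 in Prdm1, above that of 74% of the 32851 promoter windows of the table. It was 0.225 in Ifitm1, 0.168 in Ifitm3 and 0.151 in Nanos3, below the median of 0.373 over all windows. The homeodomain core TAATTA, present on either strand in 4.84% of all windows, was in none of the windows of the 6 genes, and neither was the interferon response core, a pair of GAAA separated by any 2 bases, which 2.98% of windows hold. The TFAP2 site GCCNNNGGC, found in 13.7% of windows, occurred once in Nanos3 (its first base 221 bases before the start), 2 times in 1 of the 2 Alpl windows (40 and 20 bases before the start) and once in each of the 2 overlapping Kit windows. These matches describe letters, not binding.

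In these embryos the 10 genes spanned a wide range of levels. On the scale of CPM (counts per 1000000 counts, scaled by TMM) per kilobase of merged exon, averaged over the 4 embryos, Ifitm1 stood at 443 (217 to 696), above 99.1% of the tested genes. Ifitm3 followed at 31.9 (24.5 to 42.2). Every other gene lay below 3 on this scale: Dnd1 at 2.19 (1.5 to 2.51), Alpl at 2.14 (2.04 to 2.26), Prdm1 at 1.23 (1.15 to 1.3), Kit at 0.95 (0.844 to 1.07) and Tfap2c at 0.798 (0.409 to 1.37). Nanos3 at 0.393, Prdm14 at 0.371 and Dppa3 at 0.28 were scarcest, above no more than 23.2% of the tested genes. In this order the ranges of the 4 embryos overlapped between Dnd1 and Alpl, between Kit and Tfap2c, and among Tfap2c, Nanos3, Prdm14 and Dppa3. These ranges do not compare genes within the same embryo, so their overlap does not show equal levels. The 3 scarcest genes include Dppa3 and Nanos3, which mark specified germ cells most closely.

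**Figure D1:**
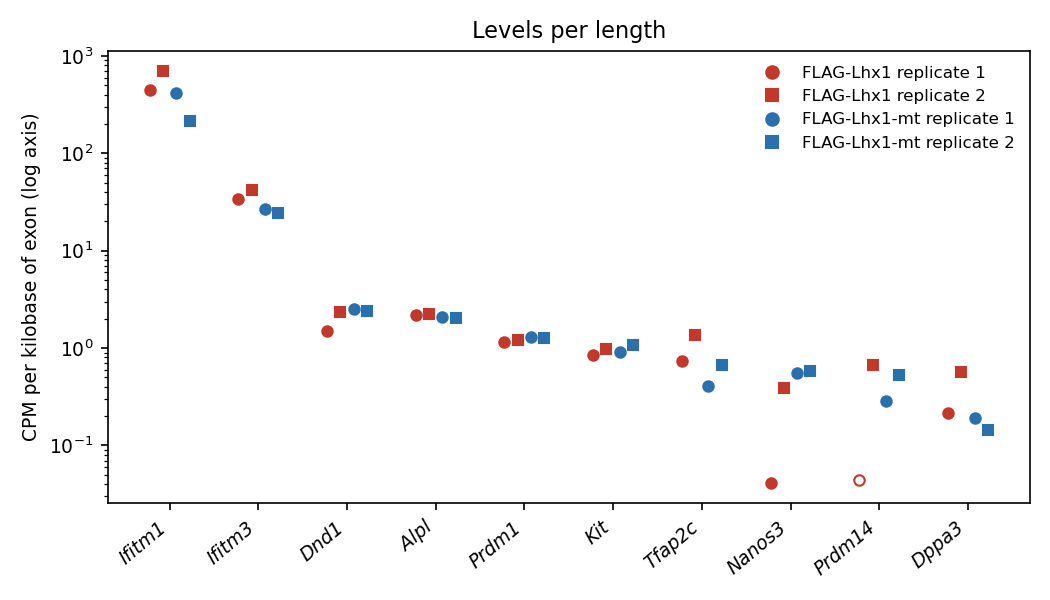
Level of each gene in CPM per kilobase of merged exon on a log axis, 1 point per embryo, ordered by the mean (red, FLAG-Lhx1; blue, FLAG-Lhx1-mt; circle, replicate 1; square, replicate 2). The open circle is Prdm14 in FLAG-Lhx1 replicate 1, which had 0 counts and is drawn at the level of 3 counts; Ifitm1 (443) and Ifitm3 (31.9) stand above the rest, and the other 8 genes lie below 3.

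No gene of the set differed between FLAG-Lhx1 and FLAG-Lhx1-mt embryos at the threshold used. Of the 9 genes that passed the count filter, 0 were called by edgeR's quasi-likelihood test at an adjusted p under 0.05, against 6.17% of all 15822 tested genes (2.62% higher and 3.55% lower in FLAG-Lhx1). At that share, fewer than 1 call would fall among 9 genes, so the count of 0 does not set them apart. An unadjusted p under 0.05 was found for 3 of the 9 (Ifitm1, Ifitm3 and Tfap2c, all with a higher mean in FLAG-Lhx1), against 21.3% of all tested genes. The log2 folds, FLAG-Lhx1 minus FLAG-Lhx1-mt, were positive for 4 and negative for 5 of the 9, with a median of -0.11 against 0.01 over all tested genes. The groups did not overlap for 7 of the 9 (or 8 of all 10), against 52.2% of the tested genes. Of the 9, 4 were higher and 3 lower in FLAG-Lhx1 without overlap, against 26.4% and 25.8% of all tested genes.

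Other settings called up to 2 of these genes, and the share of all genes they called is given here for comparison. It was 6.68% with DESeq2's size factors in edgeR, 5.48% with upper-quartile scaling, 9.42% by DESeq2, 6.44% by limma-voom, 4.41% without the count filter, 5.26% with offsets for length and GC content and 7.19% with the replicate number as a block. Leaving out FLAG-Lhx1 replicate 1 or 2 gave 3.73% or 3.1%, and leaving out FLAG-Lhx1-mt replicate 1 or 2 gave 9.56% or 9.16%.

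**Figure D2:**
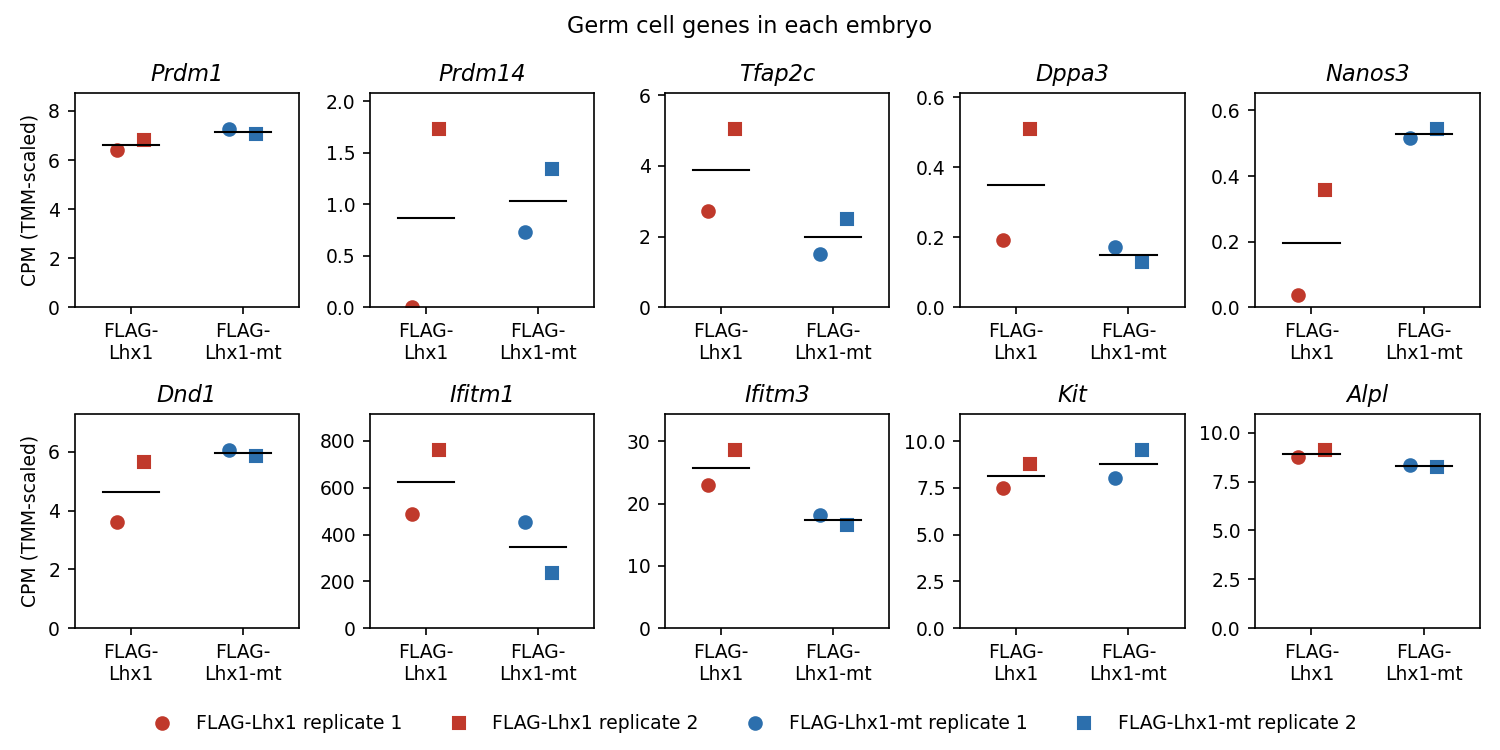
TMM-scaled CPM of the 10 genes in each embryo, with every axis starting at 0; red is FLAG-Lhx1, blue is FLAG-Lhx1-mt, circles and squares are replicates 1 and 2, and black lines are group means. Ifitm3 ran from 23 to 28.6 CPM in FLAG-Lhx1 against 16.6 to 18.2 in FLAG-Lhx1-mt, whereas the 2 FLAG-Lhx1 embryos stood apart from each other for Prdm14, at 0 and 1.73 CPM.

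Among the transcription factors, Prdm1 (ENSMUSG00000038151, chromosome 10 at 44437177 to 44528501 of GRCm38), the repressor that starts the germ cell programme, was at 6.41 CPM in replicate 1 and 6.82 CPM in replicate 2 of FLAG-Lhx1, and at 7.26 CPM in replicate 1 and 7.06 CPM in replicate 2 of FLAG-Lhx1-mt. The 4 embryos were close, with both FLAG-Lhx1 values just below the other 2. Its log2 fold was -0.11 ± 0.26 (SE; 95% interval -0.67 to 0.44; edgeR adjusted p = 0.851). The interval leaves out a change of 2-fold in either direction, and is not adjusted for the number of genes, as holds for the intervals that follow. Visceral endoderm, which also uses Prdm1, was represented by 10 marker genes whose summed level was 1905 and 2220 CPM in the FLAG-Lhx1 pair, compared with 3981 and 3348 CPM in the FLAG-Lhx1-mt pair. Of these 10, all tested, 5 fell (Apoa1, Apom, Cubn, Afp and Rbp4) and none was at 0. All 10 log2 folds were negative (median -0.62). An unadjusted edgeR p under 0.05 was found for 9 of them, against 21.3% of all tested genes. The part of these markers in the level of Prdm1 was not tested. The call of Afp was lost with replicate 2 of FLAG-Lhx1 left out (log2 fold -0.52), as was that of Cubn (-0.57), and the call of Rbp4 was lost with replicate 1 of FLAG-Lhx1 left out (-0.51), with replicate 1 of FLAG-Lhx1-mt left out (-0.40), with upper-quartile scaling (-0.59) and with length and GC offsets (-0.45).

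Prdm14 (ENSMUSG00000042414, chromosome 1 at 13113457 to 13127163), which restores pluripotency and guards against new DNA methylation, had 0 and 34 counts in FLAG-Lhx1 replicates 1 and 2 and 17 and 42 counts in FLAG-Lhx1-mt replicates 1 and 2. In CPM these were 0, 1.73, 0.73 and 1.34. FLAG-Lhx1 thus held both the embryo without a read and the embryo with the highest level. A count of 0 at this depth allows up to 3 counts, or 0.114 CPM. The exact 95% Poisson interval of that embryo ended at 0.141 CPM. This was below the interval of each of the other 3, of which the lowest began at 0.425 CPM. The 2 FLAG-Lhx1 embryos thus differed by more than the counting error of reads. Pre-amplified copies of 1 molecule are counted as separate reads, so these intervals do not cover the sampling of molecules. Between the groups the log2 fold was -0.33 ± 0.96 (SE; interval -2.37 to 1.70; edgeR adjusted p = 0.886). With all 4 embryos it was -2.82 by limma-voom (adjusted p = 0.184) and -1.07 with the replicate block (0.488), so its size also depended on the model. Its direction rested on single embryos: the log2 fold was 0.69 with replicate 1 of FLAG-Lhx1 left out and 0.16 with replicate 2 of FLAG-Lhx1-mt left out. With replicate 2 of FLAG-Lhx1 left out, where the group is the embryo at 0 counts, Prdm14 was called lower (adjusted p = 0.00699), and the fold then has no exact size. The other 9 genes of the naive ESC list summed to 64.3 and 68.7 CPM in the FLAG-Lhx1 pair, compared with 78.6 and 76.8 CPM in the FLAG-Lhx1-mt pair, with none at 0. Much of each sum was Dppa5a, at 39.3 and 40.6 CPM against 39.3 and 48.1 CPM. Of the 10 tested genes of this list, Klf4 rose and Fgf4 fell. The log2 folds were positive for 3 (Klf4, Klf2 and Esrrb) and negative for 7. Those 3 and Fgf4 were the 4 genes with an unadjusted edgeR p under 0.05. The part of these genes in the level of Prdm14 was not tested. Klf4 was no longer called when FLAG-Lhx1 replicate 2 was left out (1.44), nor was Fgf4 when FLAG-Lhx1-mt replicate 1 was left out (-0.75) and by DESeq2 or limma-voom with all 4 embryos.

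Tfap2c (ENSMUSG00000028640, chromosome 2 at 172549593 to 172558622), which acts with Prdm1 and Prdm14, was at 2.71 CPM in replicate 1 and 5.04 CPM in replicate 2 of FLAG-Lhx1, and at 1.5 CPM in replicate 1 and 2.49 CPM in replicate 2 of FLAG-Lhx1-mt. The groups did not overlap, but FLAG-Lhx1 replicate 1 was only slightly above FLAG-Lhx1-mt replicate 2. The log2 fold was 0.93 ± 0.41 (SE; interval 0.05 to 1.81; edgeR adjusted p = 0.206). It was 0.44 with replicate 2 of FLAG-Lhx1 left out and 1.34 with replicate 2 of FLAG-Lhx1-mt left out, where it was called (adjusted p = 0.0451). Its paralog Tfap2a, a gene of surface ectoderm and neural crest, rose, averaging 4.48 ± 0.719 CPM with FLAG-Lhx1 and 1.74 ± 0.57 CPM with FLAG-Lhx1-mt (both SD of n = 2; log2 fold 1.37 ± 0.38, SE, edgeR adjusted p = 0.0455). That call was lost with replicate 1 (1.49) or 2 (1.21) of FLAG-Lhx1 or replicate 2 of FLAG-Lhx1-mt (1.04) left out, and with length and GC offsets (1.29). The 8 surface ectoderm markers summed to 526 and 513 CPM in the FLAG-Lhx1 pair, compared with 625 and 538 CPM in the FLAG-Lhx1-mt pair. Most of each sum came from Krt18 (273 and 292 against 374 and 306 CPM) and Krt8 (231 and 202 against 233 and 216 CPM). The sums therefore say little about the other markers of the list. Of the 8 log2 folds, 4 were positive and 4 negative, and Tfap2a was the 1 of 8 tested that was called. The 10 trophoblast markers other than Tfap2c summed to 19.8 and 21.7 CPM against 26.7 and 23.2 CPM, and 0 of the 9 tested genes of that list, Tfap2c among them, were called by edgeR (3 had an unadjusted p under 0.05). Of these, Plac1, a placental gene, was at 8.24 and 8.29 CPM in the FLAG-Lhx1 pair and at 14.9 and 13.5 CPM in the FLAG-Lhx1-mt pair (log2 fold -0.78 ± 0.23, SE, edgeR adjusted p = 0.0533). It was called lower by DESeq2 (adjusted p = 0.0268), with DESeq2's size factors in edgeR (0.0494), without the count filter (0.0278) and with replicate 2 of FLAG-Lhx1-mt left out (0.0186). No marker of either list was at 0 in all embryos, and their part in the level of Tfap2c was not tested.

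The RNA-binding genes were lower in FLAG-Lhx1 replicate 1 than in the other embryos. Nanos3 (ENSMUSG00000056155, chromosome 8 at 84173731 to 84185217), whose protein prevents the death of migrating germ cells, had 1 and 7 counts in FLAG-Lhx1 replicates 1 and 2 and 12 and 17 counts in FLAG-Lhx1-mt replicates 1 and 2, or 0.0382, 0.356, 0.515 and 0.543 CPM. The counting interval of FLAG-Lhx1 replicate 1 (0.000966 to 0.213 CPM) lay below those of both FLAG-Lhx1-mt embryos, which began at 0.266 and 0.316 CPM, while that of FLAG-Lhx1 replicate 2 (0.143 to 0.734 CPM) overlapped all 3 others. Its log2 fold, the most negative of the set, was -1.50 ± 0.90 (SE; interval -3.42 to 0.42; edgeR adjusted p = 0.365). It was -0.60 with replicate 1 of FLAG-Lhx1 left out and -3.63 with replicate 2 of FLAG-Lhx1 left out, called in neither fit, so its size turned on those 2 embryos.

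Dnd1 (ENSMUSG00000044595, chromosome 18 at 36763671 to 36766214), which partners NANOS proteins on target RNAs, was at 3.63 CPM in replicate 1 and 5.65 CPM in replicate 2 of FLAG-Lhx1, and at 6.06 CPM in replicate 1 and 5.85 CPM in replicate 2 of FLAG-Lhx1-mt. Here 3 of the embryos were alike and FLAG-Lhx1 replicate 1 was low. The log2 fold was -0.37 ± 0.31 (SE; interval -1.02 to 0.28; edgeR adjusted p = 0.538), and -0.11 with replicate 1 of FLAG-Lhx1 left out. Of the exon bases of Dnd1, 5.8% are also exons of Wdr55 on the opposite strand, so a small part of its reads may be of that gene.

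Dppa3 (ENSMUSG00000046323, chromosome 6 at 122626410 to 122630272) encodes STELLA, a protein that protects methylation marks in the zygote and marks newly specified germ cells. It had 5 and 10 counts in FLAG-Lhx1 replicates 1 and 2 and 4 counts in each FLAG-Lhx1-mt embryo, or 0.191, 0.509, 0.172 and 0.128 CPM. This was the 1 gene of the set below the count filter. Its counting intervals overlapped among all 4 embryos. Such overlap does not show that the embryos were alike, and at these counts a difference could be missed. Without the filter its log2 fold was 1.12 ± 1.10 (SE; edgeR adjusted p = 0.826).

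**Figure D3:**
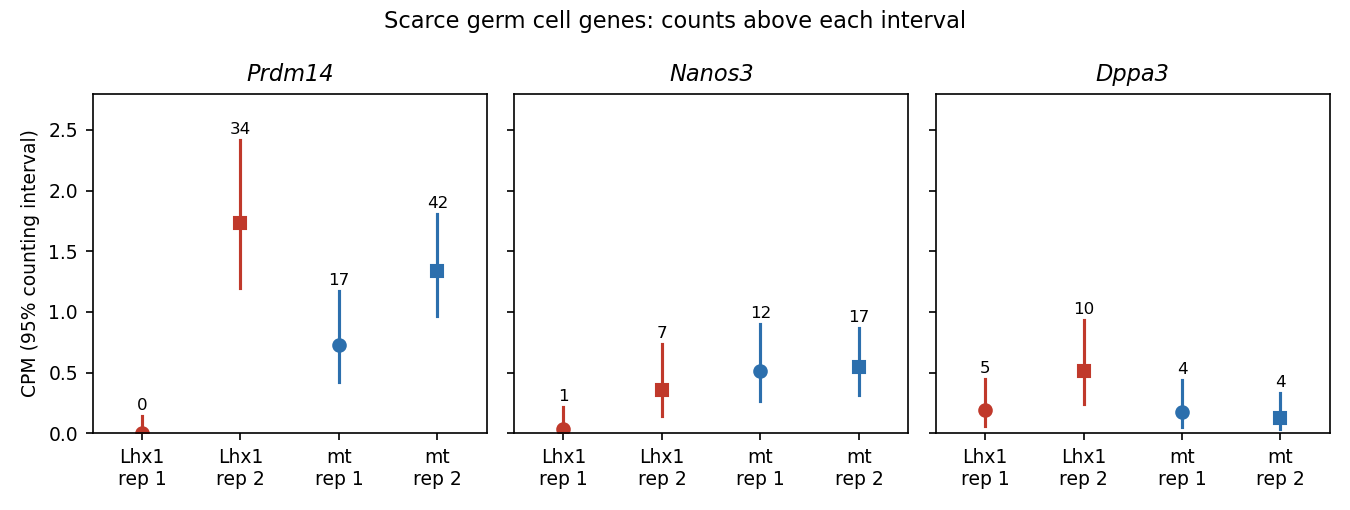
CPM of the 3 scarcest genes in each embryo with exact 95% Poisson intervals, which cover counting error only; the number above each bar is the count. Prdm14 had 0 counts in FLAG-Lhx1 replicate 1 and 34 in FLAG-Lhx1 replicate 2, while the intervals of Dppa3 overlap in all 4 embryos.

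The surface genes Ifitm1 and Ifitm3 encode interferon-induced transmembrane proteins (Ifitm3 is also called fragilis) and appear in the epiblast region where germ cells form. Both had higher values in FLAG-Lhx1, and neither passed the test. Ifitm1 (ENSMUSG00000025491, chromosome 7 at 140967221 to 140969825) was at 486 CPM in replicate 1 and 761 CPM in replicate 2 of FLAG-Lhx1, and at 455 CPM in replicate 1 and 237 CPM in replicate 2 of FLAG-Lhx1-mt. The groups did not overlap, but the 2 replicates numbered 1 were close to each other and the contrast came from the other 2. The log2 fold was 0.85 ± 0.25 (SE; interval 0.32 to 1.38; edgeR adjusted p = 0.056). This p lay near the threshold, and Ifitm1 was called with DESeq2's size factors in edgeR (adjusted p = 0.0431), with limma-voom (0.0328), with the replicate number as a block (0.00803), with length and GC offsets (0.0258), without the count filter (7.76e-06), with replicate 1 of FLAG-Lhx1 left out (log2 fold 1.11) and with replicate 1 of FLAG-Lhx1-mt left out (1.39). It was not called by DESeq2's Wald test (adjusted p = 0.39, SE 0.55) or by edgeR with upper-quartile scaling (adjusted p = 0.0593). Nor was it called with replicate 2 of FLAG-Lhx1 (log2 fold 0.50) or of FLAG-Lhx1-mt (log2 fold 0.44) left out. The SE of Ifitm1 was 0.14 without the count filter, against 0.25 with it, for the same counts. The small p without the filter thus rests on a smaller fitted variance.

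Ifitm3 (ENSMUSG00000025492, chromosome 7 at 141009586 to 141010770) was at 23 CPM in replicate 1 and 28.6 CPM in replicate 2 of FLAG-Lhx1, and at 18.2 CPM in replicate 1 and 16.6 CPM in replicate 2 of FLAG-Lhx1-mt. Both FLAG-Lhx1 embryos were above both FLAG-Lhx1-mt embryos. The log2 fold was 0.57 ± 0.19 (SE; interval 0.16 to 0.98; edgeR adjusted p = 0.0991), and 0.42 to 0.69 with 1 embryo left out. It was called with length and GC offsets (log2 fold 0.69, adjusted p = 0.0403). Ifitm3 lies 39760 bases from Ifitm1 in 1 gene cluster, whose member Ifitm2 begins on the other side of Ifitm1, 11233 bases away. Ifitm2 was at 363 and 510 CPM in the FLAG-Lhx1 pair and at 437 and 412 CPM in the FLAG-Lhx1-mt pair (replicates 1 and 2 in turn), so its groups overlapped (log2 fold 0.04 ± 0.17, SE, edgeR adjusted p = 0.918; -0.21 with replicate 2 of FLAG-Lhx1 left out). Of the 100-base windows of its transcripts, 34.9% also occur in other genes, so its value is uncertain, whereas no such window of Ifitm1 or Ifitm3 is shared. Among the 9 markers of allantois and posterior extraembryonic mesoderm other than Ifitm1, the summed level was 41.1 and 48.9 CPM in the FLAG-Lhx1 pair, compared with 42.1 and 32.6 CPM in the FLAG-Lhx1-mt pair. The embryo with the lowest sum was also the one with the lowest Ifitm1 and the lowest Ahnak. As Ahnak is part of that sum, its match is partly built in. Ahnak, a large scaffold protein gene, was at 12.1 and 17.6 CPM in the FLAG-Lhx1 pair and at 5.67 and 4.67 CPM in the FLAG-Lhx1-mt pair. It held much of the spread of the sums, rose, and was the 1 of 7 tested genes of that list to be called. Of those 7, Ifitm1 among them, the log2 folds were positive for 4 and negative for 3. None of these markers was at 0 in all embryos, and their part in the level of Ifitm1 was not tested.

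Kit (ENSMUSG00000005672, chromosome 5 at 75574916 to 75656722), the receptor through which migrating germ cells receive a survival signal, was at 7.52 CPM in replicate 1 and 8.8 CPM in replicate 2 of FLAG-Lhx1, and at 8.03 CPM in replicate 1 and 9.52 CPM in replicate 2 of FLAG-Lhx1-mt. The groups overlapped, and the log2 fold was -0.11 ± 0.25 (SE; interval -0.64 to 0.42; edgeR adjusted p = 0.853), with a value of 0.01 with replicate 2 of FLAG-Lhx1-mt left out. Its ligand gene Kitl was at 58.4 and 56.6 CPM in the FLAG-Lhx1 pair and at 44.5 and 33.3 CPM in the FLAG-Lhx1-mt pair (replicates 1 and 2 in turn). Kitl missed the threshold (log2 fold 0.56 ± 0.17, SE, edgeR adjusted p = 0.0618) but passed it with replicate 1 of FLAG-Lhx1-mt left out (0.78), by DESeq2 (adjusted p = 0.041), by limma-voom (0.0485), with the replicate number as a block (0.0433) and with upper-quartile scaling (0.0434). Its log2 fold was 0.29 with length and GC offsets (adjusted p = 0.328) and 0.36 with replicate 2 of FLAG-Lhx1-mt left out (0.259). The 11 blood and endothelium markers summed to 44.7 and 42.8 CPM against 46.3 and 48.1 CPM, with 0 of 7 tested genes called by edgeR and 0 at an unadjusted p under 0.05. None of these markers was at 0 in all embryos, and their part in the level of Kit was not tested.

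Alpl (ENSMUSG00000028766, chromosome 4 at 137741733 to 137796384) encodes the tissue-nonspecific alkaline phosphatase whose activity is the classical stain for germ cells. It was at 8.74 CPM in replicate 1 and 9.11 CPM in replicate 2 of FLAG-Lhx1, and at 8.37 CPM in replicate 1 and 8.24 CPM in replicate 2 of FLAG-Lhx1-mt. The groups did not overlap, yet the 4 values lay close together, and the log2 fold was 0.10 ± 0.24 (SE; interval -0.41 to 0.62; edgeR adjusted p = 0.857). As for Prdm1 and Kit, the interval leaves out a 2-fold change.

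**Figure D4:**
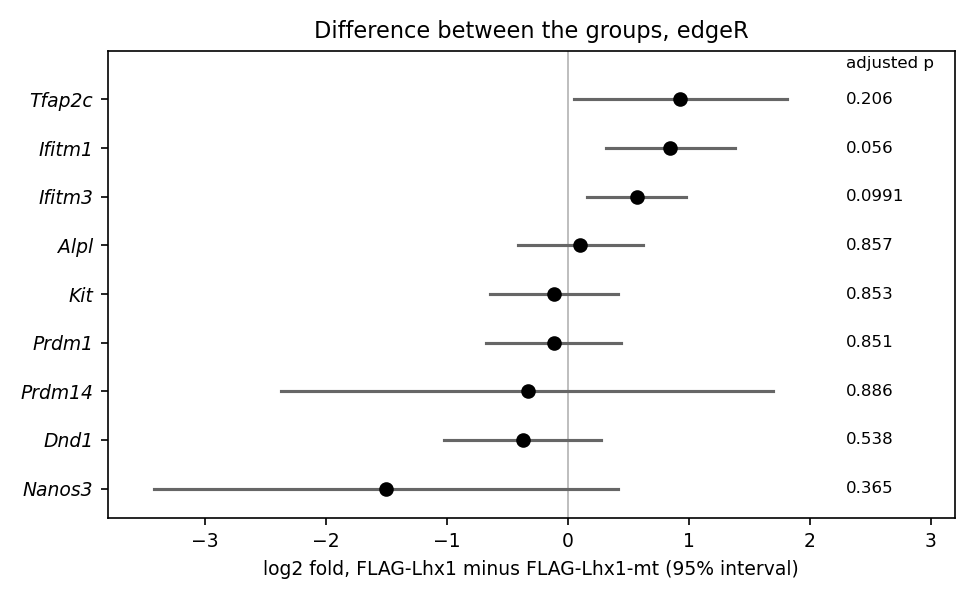
Log2 fold of the 9 tested genes (points) with unadjusted 95% intervals from edgeR (lines); adjusted p-values over all tested genes stand at the right. Intervals of Ifitm1, Ifitm3 and Tfap2c lie above 0 with adjusted p of 0.056, 0.0991 and 0.206, and those of Nanos3 and Prdm14 are the widest.

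The embryos also differed from each other within a group. FLAG-Lhx1 replicate 1 was the lowest of the 4 embryos for 5 of the 10 genes (Prdm1, Prdm14, Nanos3, Dnd1 and Kit) and the highest for none. FLAG-Lhx1 replicate 2 was the highest for 6 (Prdm14, Tfap2c, Dppa3, Ifitm1, Ifitm3 and Alpl) and the lowest for none. Over all tested genes, FLAG-Lhx1 replicate 1 was lowest for 24.1% and FLAG-Lhx1 replicate 2 highest for 25.4%. These counts describe 10 genes and were not tested.

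The signals that induce germ cells, and their transducers, included 3 genes that fell and none that rose among 14 tested (median log2 fold -0.29). The 3 were Wnt3, T and Eomes, which act in the posterior epiblast and streak. The call of T was lost with replicate 2 of FLAG-Lhx1 left out (-0.50), with replicate 1 of FLAG-Lhx1-mt left out (-0.33), with upper-quartile scaling (-0.64) and with length and GC offsets (-0.57), and Eomes, at -3.12 with all embryos, had a log2 fold of -1.94 with replicate 2 and -3.76 with replicate 1 of FLAG-Lhx1-mt left out. The BMP ligand genes, chosen for mention after their values were seen, were not called. Bmp4 was at 6.87 and 7.17 CPM in the FLAG-Lhx1 pair and at 9.79 and 7 CPM in the FLAG-Lhx1-mt pair (replicates 1 and 2 in turn) (log2 fold -0.25 ± 0.27, SE, edgeR adjusted p = 0.638). Bmp8b had 0.916 and 1.02 CPM against 0.472 and 0.575 CPM (0.87 ± 0.61, adjusted p = 0.45).

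Of 13 tested pluripotency genes that early germ cells keep on, Pou5f1, Nanog and Utf1 fell and Sox2 rose (median log2 fold -0.25). The call of Sox2, named after its value was seen, was lost with replicate 1 of FLAG-Lhx1 left out (0.75), while the log2 fold of Utf1 went from -2.97 to -3.82. Sall4, Lin28a and the other 7 did not pass. All 4 called genes are also active in epiblast or neural tissue, so the list does not isolate germ cells.

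Among 11 cofactors and chromatin regulators of germ cell reprogramming, Dnmt3b fell and Ezh2 rose (median log2 fold -0.17). Dnmt3b, a de novo DNA methyltransferase that germ cells turn down, averaged 310 ± 74.9 CPM with FLAG-Lhx1 and 616 ± 135 CPM with FLAG-Lhx1-mt (both SD of n = 2; log2 fold -0.99 ± 0.19, SE, edgeR adjusted p = 0.00607). Ezh2, the methyltransferase of Polycomb complex PRC2, was at 246 ± 13.6 CPM against 174 ± 3.32 CPM (0.50 ± 0.14, adjusted p = 0.0456). Ezh2 missed the threshold when FLAG-Lhx1 replicate 1 (0.41), replicate 2 (0.57) or FLAG-Lhx1-mt replicate 2 (0.47) was left out, without the count filter (0.44) and with length and GC offsets (0.44). Prmt5, an arginine methyltransferase gene that was named after its values were seen, was at 100 and 85.2 CPM in the FLAG-Lhx1 pair and at 139 and 126 CPM in the FLAG-Lhx1-mt pair (-0.51 ± 0.15, SE, edgeR adjusted p = 0.0517). It was called lower by DESeq2 (adjusted p = 0.0221), with DESeq2's size factors in edgeR (0.0463), by limma-voom (0.0473), without the count filter (0.0107), with the replicate block (0.0374) and with replicate 2 of FLAG-Lhx1-mt left out (0.012). Cbfa2t2, the corepressor that binds PRDM14, was at 21 and 24.2 CPM in the FLAG-Lhx1 pair and at 24.5 and 26.4 CPM in the FLAG-Lhx1-mt pair (replicates 1 and 2 in turn) (-0.17 ± 0.18, adjusted p = 0.643) and was added after its values were seen.

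Of 7 genes of germ cell migration and survival, all tested, Cxcl12 and Cxcr4 fell and Tial1 rose (median log2 fold -0.06). CXCL12 is the chemokine that guides germ cells to the gonad and CXCR4 is its receptor. Cxcl12 was at 13.6 and 11.7 CPM in the FLAG-Lhx1 pair and at 30.8 and 29.7 CPM in the FLAG-Lhx1-mt pair (replicates 1 and 2 in turn) (log2 fold -1.25 ± 0.19, SE, edgeR adjusted p = 0.0016). Cxcr4 had 3.05 and 2.04 CPM against 5.63 and 6.97 CPM (-1.30 ± 0.33, adjusted p = 0.0304), and its call was lost with replicate 2 of FLAG-Lhx1 left out (-1.03). Tial1, which encodes the RNA-binding protein TIAR needed for germ cell survival, had 248 and 267 CPM against 155 and 175 CPM (0.64 ± 0.14, adjusted p = 0.0159), and missed the threshold when FLAG-Lhx1 replicate 2 was left out (0.60) and with length and GC offsets (0.42). These genes are active in gastrula mesoderm or more broadly, so their levels in a whole embryo are not levels in germ cells.

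**Figure D5:**
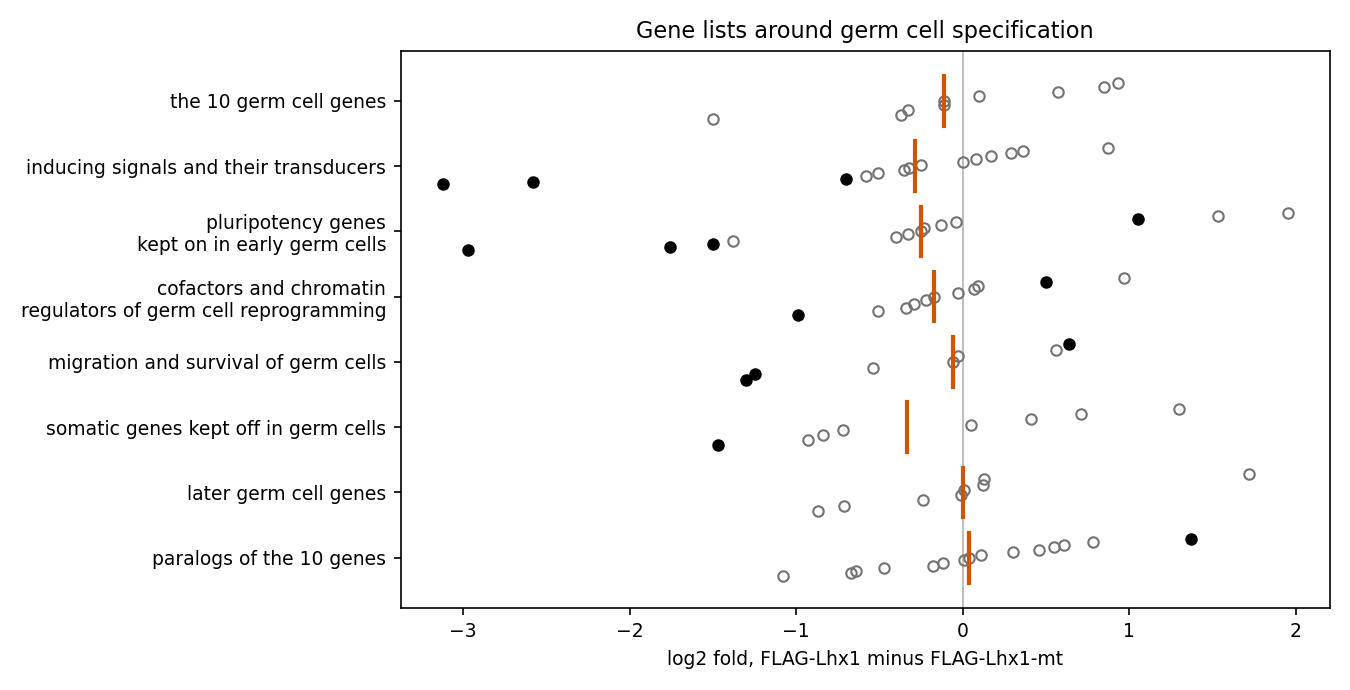
Log2 fold, FLAG-Lhx1 minus FLAG-Lhx1-mt, of every tested gene in the 8 lists (points), filled where edgeR's adjusted p was under 0.05; orange bars are list medians. Filled points are absent from the 10 germ cell genes and from the later germ cell genes, and the median of the 10 genes is -0.11.

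Among 8 somatic genes that germ cells keep off, all tested, Mesp1 fell and none rose (median log2 fold -0.33). Mesp1, a transcription factor gene of early mesoderm, was at 18 and 13.5 CPM in the FLAG-Lhx1 pair and at 40.9 and 46.6 CPM in the FLAG-Lhx1-mt pair (replicates 1 and 2 in turn; log2 fold -1.47 ± 0.19, SE, edgeR adjusted p = 0.000404). Of 14 later germ cell genes, which act in meiosis or piRNA pathways, 8 passed the filter and 0 were called by edgeR, with 1 at an unadjusted p under 0.05 (median log2 fold 0.00). That 1 was Piwil2, at 1.53 and 0.814 CPM in the FLAG-Lhx1 pair, compared with 0.429 and 0.288 CPM in the FLAG-Lhx1-mt pair (1.72 ± 0.66, adjusted p = 0.139). Among 15 tested paralogs of the 10 genes, Tfap2a was the 1 called (median 0.04).

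Lhx1 itself (chromosome 11 at 84518284 to 84525535) was not called (log2 fold 0.11 ± 0.16, SE, edgeR adjusted p = 0.733; -0.07 to 0.29 with 1 embryo left out), and gene counts do not separate the induced form from the endogenous gene. The libraries held 21267116 to 30434442 counts. Over all genes 976 were called, while leaving out replicate 1 or 2 of FLAG-Lhx1 gave 628 or 521 calls and leaving out replicate 1 or 2 of FLAG-Lhx1-mt gave 1648 or 1553. The 6 markers of maternal decidua summed to 4.32 to 5.42 CPM. This sum hides a difference in Prl8a2, which had 2 and 3 counts in FLAG-Lhx1 replicates 1 and 2. It had 3 and 52 counts in FLAG-Lhx1-mt replicates 1 and 2, or 0.129 and 1.66 CPM. For a single gene in 2 against 2 embryos, the smallest two-sided exact permutation p is 0.333, so every call here depends on the variance that edgeR shares across genes.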

How the data were processed

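The deposited files hold whole-number read counts per Ensembl gene, 1 file per embryo and not normalized, per the file headers. Libraries followed the Geo-seq protocol with 10 cycles of pre-amplification and 100-base paired reads, per the labels' protocols. STAR and featureCounts of Subread with GRCm38 and mm10 were used, per the submitters' processing notes; their versions, the annotation and the strand option were not found in these sources. The submitters took embryos at E8.5 and, for their delay, called them E7.75.

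Symbols, positions and merged exon lengths came from GENCODE vM21 (GRCm38), where 96.2% of the 39179 IDs were found. Genes were filtered with filterByExpr (minimum count 10, minimum total count 15), scaled by TMM, and compared in edgeR 4.0.16 (R 4.3.3) by the quasi-likelihood F test with group as the only term and Benjamini-Hochberg adjustment over 15822 genes. Standard errors divide the log2 fold by the root of F, and 95% intervals use 15.4 degrees of freedom, 13.4 of them borrowed from other genes. The fit was tested on simulated data. Alternatives used limma 3.58.1, DESeq2 1.42.0 and smooth offsets from mgcv 1.9.3.

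The 10 genes and the lists were chosen with earlier results of these data known. Named by rule were all 10 genes, Lhx1, Ifitm2 and Kitl; up to 3 called genes of each pathway list, or the 1 with the smallest p; and, of each marker list, the most abundant and the most significant called gene. Of the marker genes that were most abundant but not called, Plac1, Krt18 and Dppa5a are given with their own values. Kdr and Cryab are given within the sums of their lists. Krt8, Klf2, Esrrb and Prl8a2 were added after their values were seen. Promoters of Prdm14, Tfap2c, Dppa3 and Dnd1 were not analysed here. Some genes were left out of the lists and are not reported here. Lists were described by counts and medians, with no list test. The labels name individual embryos; the mothers and litters are not given.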

Additional observations from a re-analysis of the deposited data

How the results depend on the processing

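The count of 0 called genes among the 10 moved to 1 with DESeq2's size factors in edgeR, with limma-voom, with no count filter and with the replicate block (Ifitm1 in each), to 2 with length and GC offsets (Ifitm1 and Ifitm3), and to 1 without any single embryo (lowest and highest both 1: Ifitm1 without either replicate 1, Prdm14 without FLAG-Lhx1 replicate 2, Tfap2c without FLAG-Lhx1-mt replicate 2). It stayed at 0 with upper-quartile scaling and with DESeq2, which gave no adjusted p for Prdm14 and Nanos3. The share of all tested genes called ran from 3.1% to 9.56% over these fits. Calls over all genes were 521 to 1648 with 1 embryo left out and 1138 with the replicate block. Of the 976, 42.5% were higher, against 54.4% of 867 with upper-quartile scaling, which shifted the median log2 fold by 0.0527. Replicate numbers were not shown to pair embryos (correlation of the replicate differences of both groups across genes 0.0156); under the block Ifitm1 had an adjusted p of 0.00803, Kitl 0.0433 and Prmt5 0.0374. Leaving out 1 embryo leaves 1 group with a lone embryo, assumed to vary like the others. Signs turned for Prdm14 (0.69 and 0.16; with 1 embryo left out, from 0.69 to a fitted -7.82 that has no exact size because its FLAG-Lhx1 embryo had 0 counts) and Kit (0.01; -0.23 to 0.01). Among other named genes they turned for Lhx1 (-0.01 and -0.07; -0.07 to 0.29), Ifitm2 (-0.21, and -0.02 in 2 fits; -0.21 to 0.24) and Dppa5a (0.01; -0.27 to 0.01), none of them called in those fits; the causes were not tested. Of the 97 refits of the 9 tested genes that gave an adjusted p, 84 kept sign and side of the threshold. Dppa3 had at most 10 counts in an embryo and Nanos3 at most 17.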
